A study of Mus musculus with 3 samples.

Results

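The genes described here make up 1 functional list, the machinery that folds proteins in the endoplasmic reticulum (ER) and the unfolded protein response (UPR) that adjusts it. The list was written by gene name, with earlier results of these data known, and its 32 members were found as 32 rows among the 43472 rows of the table of normalized counts. RNA-seq was made from primary fibroblasts grown from the tail tip of C57BL/6 mice, whose monolayer had been wounded with a scratch. The cells had received the soluble fraction of micrografts (MG) made from mouse skin, diluted 10-fold in medium, and, with it, PD0325901 for 5 h, which blocks MEK, the kinase that activates ERK. Replicates 1, 2 and 3 of this MG + PD0325901 condition, named so in the sample titles, have 1 library each, and all carry the wound, the MG and the inhibitor. The age and sex of the mice and how many animals gave cells are not given in the sources used here. Untreated and MG-only cells were not analysed here, so no value below measures an effect of MG, of the wound or of MEK inhibition.

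Proteins destined for the membrane or for secretion enter the ER through the Sec61 translocon, are held by chaperones such as BiP and calnexin, receive disulfide bonds from protein disulfide isomerases, and are sent back to the cytosol for degradation when folding fails. When unfolded proteins accumulate, the sensors IRE1, PERK and ATF6 raise the transcription of many of these same genes, through the factors XBP1, ATF4 and ATF6. Fibroblasts make large amounts of procollagen, which needs its own chaperones and a dedicated export receptor.

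The promoters of some members hold the element through which XBP1 and ATF6 are known to act, and these sequences are shown because they are a feature of the genes that the RNA data did not use. The ER stress response element (ERSE) was searched for as CCAAT and CCACG with 9 bases between them, on either strand, in the 250 bases before and 50 bases after each transcription start of RefSeq (GRCm38.p6). A window was given for 27 of the 32 members, with Ero1l matched as Ero1a, and Fkbp10, Hyou1, Manf, Sec61a1 and Ssr2 were not matched. ERSE was present in 8 of the 27, Hspa5, Hsp90b1, Calr, Canx, Pdia6, Dnajc3, Creld2 and Syvn1, and in 39 of all 32851 windows (0.119%). The related element ERSE-II, ATTGG and CCACG with 1 base between, was found in Herpud1 and Dnajb11, against 12 of all windows (0.0365%). Among the matched chaperone and isomerase genes without either element were Serpinh1, P4hb, Pdia3, Pdia4, Dnajb9 and Sdf2l1. In the stretches below, written 5′ to 3′ on the strand of the gene, capitals mark the ends of these elements, and an element on the opposite strand reads CGTGG and ATTGG.
Hspa5, chr2:34772010-34772058, plus strand: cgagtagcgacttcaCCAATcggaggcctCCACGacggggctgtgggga
Calr, chr8:84847060-84847108, minus strand: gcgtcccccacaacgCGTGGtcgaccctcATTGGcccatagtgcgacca
Canx, chr11:50325785-50325833, minus strand: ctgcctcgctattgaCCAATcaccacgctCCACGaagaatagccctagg
Pdia6, chr12:17266476-17266524, plus strand: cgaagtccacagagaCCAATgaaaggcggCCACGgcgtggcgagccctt
Dnajc3, chr14:118937812-118937860, plus strand: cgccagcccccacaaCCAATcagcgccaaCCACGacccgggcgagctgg
Creld2, chr15:88819505-88819553, plus strand: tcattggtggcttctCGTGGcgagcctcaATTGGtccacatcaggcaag
Syvn1, chr19:6046517-6046565, plus strand: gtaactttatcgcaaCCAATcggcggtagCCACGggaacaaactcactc

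Hsp90b1 was the only matched member with 2 copies of ERSE in its window, in opposite orientations, at positions -212 to -194 and -107 to -89 counted from the start. The stretch that holds both is shown with their ends in capitals.
Hsp90b1, chr10:86705518-86705671, minus strand: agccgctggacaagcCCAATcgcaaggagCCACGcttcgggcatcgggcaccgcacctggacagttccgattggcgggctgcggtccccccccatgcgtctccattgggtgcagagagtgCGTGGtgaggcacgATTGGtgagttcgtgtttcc
Herpud1 carried ERSE-II together with the core of the element bound by C/EBP and ATF4 dimers (TGATGCAA, here on the opposite strand as TTGCATCA), which was found in no other matched member and in 294 of all windows (0.895%). Both are in capitals in the next stretch.
Herpud1, chr8:94386302-94386402, plus strand: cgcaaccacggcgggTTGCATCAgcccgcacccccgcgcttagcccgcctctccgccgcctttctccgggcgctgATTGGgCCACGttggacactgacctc
The UPR element core TGACGTGG was in none of the 27 windows and in 222 of all windows (0.676%). A match is a description of the letters in a window, not a bound site, and a window without a match says nothing about the factor.

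The libraries held 22540518, 27037783 and 17244505 reads on genes in replicates 1, 2 and 3. Fibroblast markers were abundant (10 of 10 detected), with summed levels of 483446, 505254 and 745513 normalized counts. Of other cell types, keratinocyte markers summed to 34.4 to 83.4 normalized counts with Krt1 and Krt15 at 0, leukocyte markers to 76.8 to 670, plasma cell markers to 0 to 7.82, and endothelial markers to 55.7 to 244. Skeletal muscle markers summed to 2641, 8494 and 5664, with Acta1 and Des detected and Myod1 at 0. In bulk RNA, fewer cells of a type and less RNA per cell cannot be told apart. Single markers set replicate 2 apart in both directions, as these genes chosen after their values were seen show. Thy1 had 2031, 15760 and 1652 normalized counts and Des 212, 1208 and 77.0, both highest in replicate 2. Lum had 5073, 289 and 1164 normalized counts and Dcn 3661, 1723 and 3659, both lowest there. Tek, an endothelial marker, had 6.95, 185 and 2.37, which was most of the endothelial sum of replicate 2. No other endothelial marker was highest there. Egfl7 had 69.5, 53.6 and 49.8, Pecam1 9.55, 3.52 and 2.37, Kdr 4.34, 1.41 and 0, and Cdh5 0, 0 and 1.19. The part of these differences, and of those in the sums of every list above, in the member values was not tested.

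All 32 members were detected, which means 10 or more normalized counts in each of the 3 libraries. The lowest count of a member in a library was 412 reads (Sdf2l1, replicate 3), so that the counting error of any member value was at most 4.93%. Together the members took 1.73% of the reads on genes in replicate 1 (95% Wilson interval 1.725 to 1.736%), 1.51% in replicate 2 (1.509 to 1.519%) and 1.65% in replicate 3 (1.639 to 1.651%), a mean of 1.63 ± 0.109% (SD, n = 3). The intervals cover counting error only and did not overlap. The 6 members with means above 20000 normalized counts, Serpinh1, P4hb, Calr, Hsp90b1, Pdia3 and Hspa5, held 65.0% of the normalized counts of the list.

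**Figure D1:**
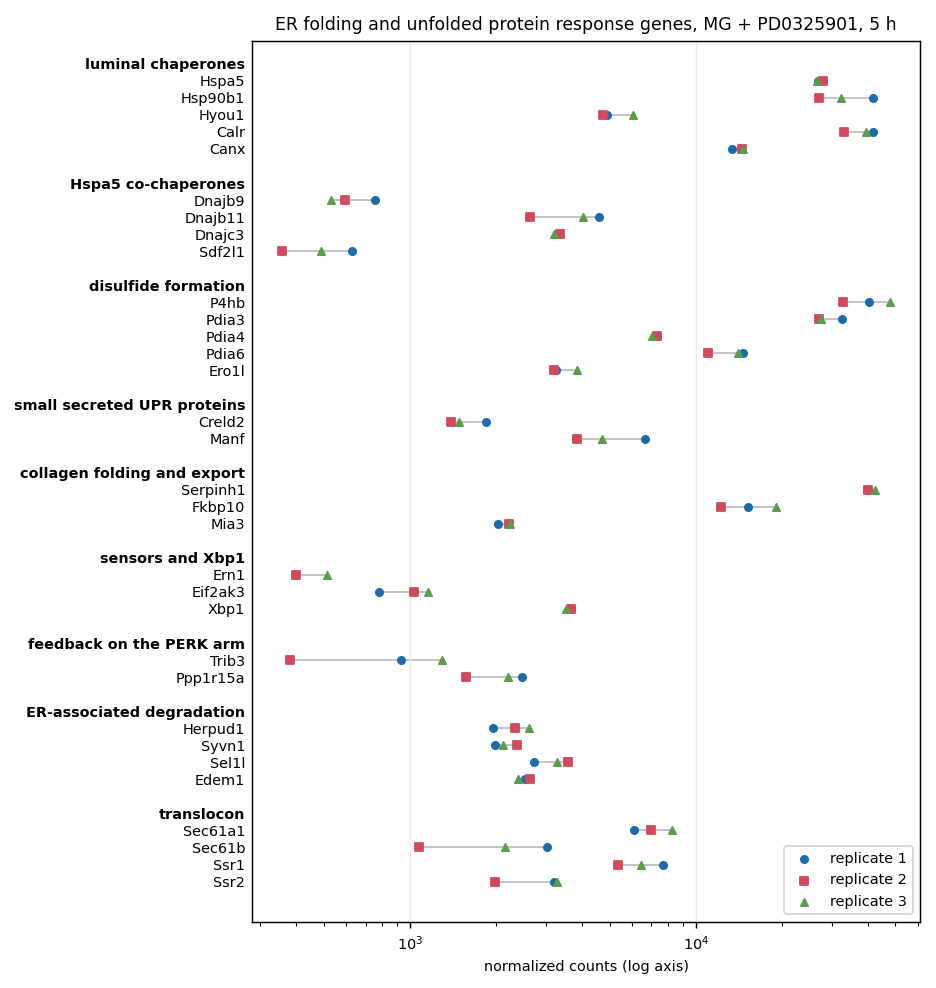
Normalized counts (log axis) of the 32 members in MG + PD0325901 replicates 1 (circles), 2 (squares) and 3 (triangles), grouped by role, with a line from the lowest to the highest library. Trib3 and Sec61b have the longest lines, at 3.39-fold and 2.79-fold, and the 3 points of Hspa5, Xbp1, Dnajc3 and Pdia4 lie within 1.05-fold.

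Among the luminal chaperones, Hspa5 stood at nearly the same level in all 3 libraries and Hsp90b1 did not. Hspa5 (chromosome 2, 34771970 to 34777547, plus strand, GRCm38) encodes BiP, the ER Hsp70 that binds unfolded chains and keeps the UPR sensors silent. Its levels in replicates 1, 2 and 3 were 26794, 27912 and 26583 normalized counts, with a mean ± SD of 27096 ± 714 (n = 3). Hsp90b1 (chromosome 10, 86690209 to 86705509, minus strand) encodes GRP94, the ER Hsp90 that folds integrins, Toll-like receptors and IGFs. Its levels were 41626, 27036 and 32166 normalized counts, highest in replicate 1 and 1.54-fold lower in replicate 2. Pairs of libraries were compared gene by gene with a two-sided exact binomial test on the reads, with Benjamini-Hochberg adjustment over all genes. This test asks whether 2 libraries differ beyond counting error, not whether cultures or conditions differ. Hsp90b1 differed in every pair, with an adjusted p of 9.92e-104 by this exact test for the closest pair, replicates 2 and 3. For Hspa5 the 1.05-fold difference between replicates 2 and 3 also passed, at an adjusted p of 1.64e-08 by the exact binomial test, because its counts were high. Small differences of abundant genes are therefore described below by their size.

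Calr and Canx encode calreticulin and calnexin, the soluble and the membrane-bound lectin chaperone that hold newly made glycoproteins. Calr had 41597, 32930 and 39298 normalized counts, with replicate 2 the lowest. Canx had 13451, 14544 and 14668 normalized counts, with replicate 1 the lowest and a range of 1.09-fold. Per kb of exon, the ratio of Calr to Canx was 5.04, 3.69 and 4.37 in replicates 1, 2 and 3, so the soluble lectin chaperone was the higher in each library. Hyou1, an Hsp70-related protein that recharges BiP with ATP, had 4904, 4725 and 6043 normalized counts. Replicate 3 lay above both others, which did not pass the test against each other (exact binomial, adjusted p = 0.0573).

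The J-domain and associated partners of BiP differed in how much they varied. Dnajc3, whose product also inhibits PERK, was level at 3309, 3341 and 3204 normalized counts, and no pair of its libraries passed the test. Dnajb11, which passes unfolded chains to BiP, had 4600, 2629 and 4029 normalized counts. Sdf2l1, which forms a complex with Dnajb11, had 628, 357 and 488. Both were lowest in replicate 2, highest in replicate 1 and differed in all 3 pairs, with ranges of 1.75-fold and 1.76-fold. Dnajb9, a co-chaperone that returns BiP to IRE1 and a known target of XBP1, had 755, 593 and 529 normalized counts. It was highest in replicate 1, while replicates 2 and 3 did not pass against each other (exact binomial, adjusted p = 0.0813). Per kb of exon, its level was 0.0468, 0.0352 and 0.0330 of that of Hspa5.

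Of the genes for disulfide formation, the 4 protein disulfide isomerases and the oxidase Ero1l all stayed within 1.5-fold. P4hb, the classical isomerase and also a subunit of the collagen prolyl 4-hydroxylase, had 40400, 32689 and 47861 normalized counts, lowest in replicate 2 and highest in replicate 3. Pdia3, which works with the lectin chaperones, had 32629, 27067 and 27401. Replicate 1 was the high library there, and replicates 2 and 3 lay within 1.01-fold. Pdia6, which also binds IRE1, had 14662, 11029 and 14050 normalized counts, with replicate 2 alone low. Pdia4, a further isomerase, had 7332, 7329 and 7012, a range of 1.05-fold. Ero1l (Ero1a in RefSeq), which reoxidises the isomerases, had 3252, 3198 and 3833 normalized counts, with replicate 3 the high library.

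Of the collagen-specific members, Serpinh1 stood at the top of the list beside P4hb and Calr, and Mia3 varied little. Serpinh1 (chromosome 7, 99345376 to 99353239, minus strand), the collagen chaperone HSP47, stood at 39670, 39992 and 42390 normalized counts. The mean ± SD was 40684 ± 1486 (n = 3) and the range 1.07-fold. Fkbp10, a prolyl isomerase that acts on procollagen, had 15231, 12258 and 19051 normalized counts. It was lowest in replicate 2 and highest in replicate 3, 1.55-fold apart, whereas Serpinh1 did not differ between replicates 1 and 2 by the test (exact binomial, adjusted p = 0.248). Fkbp10 shares 193 exonic bases with Nt5c3b on the opposite strand, whose own level was 471 to 501 normalized counts, and whether the counting used strand is not given. Mia3, the receptor TANGO1 that loads procollagen into export carriers, had 2042, 2221 and 2244 normalized counts. Replicate 1 was the lowest, by at most 1.10-fold.

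The sensors were the members with the lowest levels per length, and their output gene Xbp1 was among the steadiest as deposited. Ern1, which encodes the sensor and RNase IRE1, had 397, 400 and 513 normalized counts, or 53.4 ± 8.11 per kb of exon (SD, n = 3). Eif2ak3, which encodes the eIF2α kinase PERK, had 781, 1033 and 1158 normalized counts, or 164 ± 31.9 per kb. Both were highest in replicate 3, and Eif2ak3 was 1.32-fold lower in replicate 1 than in replicate 2. Xbp1 (chromosome 11, 5520659 to 5525893, plus strand), whose mRNA is spliced by IRE1 to encode the active factor, stood at 3656, 3663 and 3527 normalized counts, with a mean ± SD of 3615 ± 76.2 (n = 3). No pair of its libraries passed the test. Counts per gene do not separate the spliced from the unspliced mRNA, so they do not measure IRE1 activity.

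The largest spread of the list was that of Trib3. Trib3 (chromosome 2, 152337422 to 152344032, minus strand) encodes a pseudokinase that is induced through ATF4 and CHOP and restrains them. It had 927, 382 and 1294 normalized counts, from 1068, 542 and 1092 reads. Replicate 2 was 2.42-fold below replicate 1 and 3.38-fold below replicate 3 on the log2(normalized count + 1) scale, at adjusted p of 1.68e-66 and 1.77e-127 by the exact binomial test. Ppp1r15a, which encodes GADD34, the subunit that directs a phosphatase to eIF2α and so ends the PERK response, had 2477, 1577 and 2200 normalized counts. It too was lowest in replicate 2 and differed in all 3 pairs, but replicate 1 and not replicate 3 was the highest. Per kb of exon, the ratio of Trib3 to Ppp1r15a was 0.517, 0.335 and 0.813 in replicates 1, 2 and 3.

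None of the 4 ER-associated degradation genes was lowest in replicate 2 as deposited, while Edem1 was after the correction for length and GC content described below. Syvn1 encodes the ubiquitin ligase HRD1 and Sel1l its adaptor. Sel1l had 2727, 3567 and 3270 normalized counts and Syvn1 had 1991, 2368 and 2122, both lowest in replicate 1 and highest in replicate 2. Herpud1, a membrane partner of HRD1, had 1961, 2339 and 2610 normalized counts, highest in replicate 3. Edem1, which recognises misfolded glycoproteins by their trimmed sugars, had 2527, 2634 and 2385, and only replicates 2 and 3 differed by the test (exact binomial, adjusted p = 0.000688). The ranges of the 4 genes were 1.10-fold to 1.33-fold.

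The translocon subunits did not move together. Sec61b (chromosome 4, 47474658 to 47483242, plus strand), the small β subunit of the channel, had 3010, 1078 and 2151 normalized counts, a range of 2.79-fold with the 3 libraries well apart. Sec61a1, the pore itself, had 6092, 6980 and 8248 normalized counts, lowest where Sec61b was highest. Per kb of exon, the ratio of Sec61b to Sec61a1 was 2.62, 0.818 and 1.38 in replicates 1, 2 and 3, below 1 in replicate 2 only. After the correction for length and GC content it was 2.08, 1.06 and 1.35, above 1 in all 3 libraries. These ratios used the union of exons. With the longest transcript the mean per kb went from 1056 to 2240 for Sec61a1 and from 1636 to 2876 for Sec61b. Whether a ratio near 1 lies above or below it therefore depends on the length used. Ssr1 and Ssr2 encode the α and β subunits of the translocon-associated protein complex that assists insertion. Ssr1 had 7663, 5332 and 6443 normalized counts. Ssr2 had 3186, 1983 and 3274, with replicate 2 alone low. Per kb of exon, the ratio of Ssr2 to Ssr1 was 2.33, 2.08 and 2.84, lowest in replicate 2, and after the correction 1.85, 2.94 and 2.53, highest there.

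Creld2 and Manf encode small secreted proteins of the UPR. Manf, a trophic factor that stabilises client binding by BiP, had 6625, 3848 and 4700 normalized counts, 1.72-fold higher in replicate 1 than in replicate 2. Creld2, a cysteine-rich protein of the ER, had 1850, 1397 and 1491. Replicate 1 was the high library for both, and replicates 2 and 3 of Creld2 did not pass the test (exact binomial, adjusted p = 0.107).

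The order of the members was compared per kb of exon, since a longer transcript yields more reads. Serpinh1 led with 16653 ± 608 normalized counts per kb (SD, n = 3), followed by P4hb with 14092 ± 2652 and Calr with 13174 ± 1559. The libraries of P4hb overlapped those of both others, whereas every Serpinh1 library lay above every Calr library with this length. Pdia3 at 9249 ± 994 and Hsp90b1 at 8336 ± 1836 per kb formed the next pair, then Hspa5 at 6407 ± 169 and Fkbp10 at 5286 ± 1160. Pdia6, Canx and Pdia4 lay between 3011 and 3537 per kb. Of the 31 neighbouring pairs in this order, only 9 had libraries that did not overlap. They were those after Calr, Hsp90b1, Fkbp10, Pdia4, Herpud1, Ssr1, Sel1l, Dnajb9 and Eif2ak3. Overlap was read from the range over the libraries, not from the order within each library. Within each library Serpinh1 lay above P4hb and Pdia3 above Hsp90b1. Calr lay above P4hb in replicates 1 and 2 and below it in replicate 3. The order depends on the length used. With the longest annotated transcript in place of the union of exons, the place of 17 members changed. Then 6 values rose by over 1.5-fold, up to 2.12-fold for Sec61a1. Fkbp10 and Pdia6 turned, as did P4hb and Calr. The means were then 17891 per kb for Serpinh1, 17372.5 for Calr and 14092 for P4hb, so the gap between Serpinh1 and Calr holds for the exon union only. Against 11620 detected genes with an annotated length, 18 of the 32 members were at or above the 90th percentile per kb, and Ern1 was at the 33.3rd. The per-kb values of Mia3 are uncertain, because none of its 6 annotated transcripts spans the gene. The 10 members with ERSE or ERSE-II had a median of 2095 normalized counts per kb of exon union and the 17 matched members without either 621. The median SD of log2 was 0.19 and 0.21, and replicate 2 was lowest for 5 of the 10 and 8 of the 17. Calr, Hsp90b1 and Hspa5 are among the 10, and Serpinh1, P4hb and Pdia3 among the 17. No contrast between these groups was tested.

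**Figure D2:**
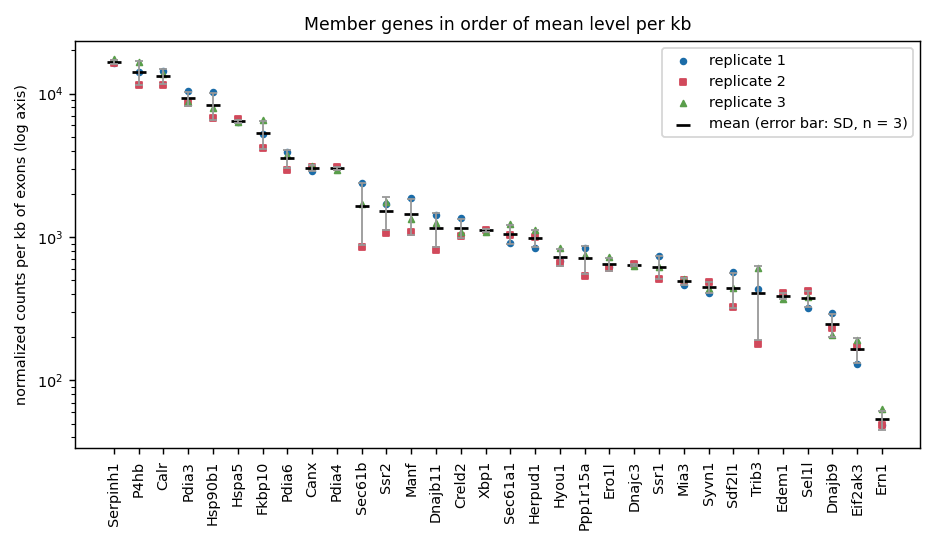
Normalized counts per kb of exon (log axis) of the 32 members in each of the 3 libraries, with the mean (bar) and SD (error bar, n = 3), in descending order of the mean. The order runs from Serpinh1 at 16653 to Ern1 at 53.4 per kb, and the points of most neighbours overlap.

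Beside all genes, the members had a smaller median spread between the replicates but were called in more of the pairs, and neither contrast was tested. The median SD of log2(normalized count + 1) over the 3 libraries was 0.21 for the members, from 0.03 for Xbp1 to 0.91 for Trib3, and 0.30 for the 12204 detected genes. These medians were closer, at 0.17 and 0.20, when replicate 2 was left out. The highest library was more than 2-fold above the lowest for 2 of the 32 members (6.25%), Sec61b and Trib3, against 22.0% of all detected genes. It was within 1.2-fold for 10 members (31.3%) and 15.6% of detected genes. Next came Sdf2l1 at 1.76-fold and Dnajb11 at 1.75-fold. Most members are abundant genes, and the part of counting error in this contrast was not tested. By the exact binomial test, 24 members differed between replicates 1 and 2 (75%, against 69.1% of all genes tested), 26 between replicates 1 and 3 (81.3%, against 52.0%) and 25 between replicates 2 and 3 (78.1%, against 62.6%). The power of this test grows with the count, so the shares for these abundant genes cannot be read as larger differences. With a difference over 2-fold also required, the members called were 2, 0 and 1, against 20.3%, 9.27% and 16.4% of all genes. A replicate more than 2-fold from both others was found for Trib3 in replicate 2 only, where 10.1% of all genes with a mean of at least 10 stood apart. In replicates 1 and 3 no member stood apart, against 4.26% and 3.58% of all genes. Xbp1 and Dnajc3 were called in no pair and Edem1 in 1 pair.

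Replicate 2 tended to be the low library for the list. It was lowest for 17 members, replicate 1 for 9 and replicate 3 for 6, whereas replicate 2 was lowest for 37.3% of all detected genes. Of the members that differed between replicates 1 and 2, 16 were higher in replicate 1 (33.1% of all genes tested were called in that direction) and 8 higher in replicate 2 (36.0% of all genes). Of the 25 that differed between replicates 2 and 3, 5 (20%) were higher in replicate 2, against 51.2% of all genes called. The other 20 were higher in replicate 3. Between replicates 1 and 3 the calls were 13 higher in replicate 1 and 13 in replicate 3, where 49.1% of all genes called were higher in replicate 1. The median log2 ratio of the members in each library against the mean of the other two was 0.03, -0.16 and 0.08 in replicates 1, 2 and 3, against -0.03, 0.03 and 0.00 over all detected genes. When the libraries were scaled to equal totals, detected genes shifted by a median log2 of 0.047 in replicate 2 and -0.055 in replicate 3. Replicate 2 was then lowest for 14 members, and the share of all genes lowest there is not given for this scaling. The calls between replicates 2 and 3 were 17 higher in replicate 3 and 10 higher in replicate 2. The members called higher in replicate 2 were then 37.0% of those called, against 60.9% over all genes, where the deposited scaling gave 20% and 51.2%. The order of the 2 libraries then turned in at least 1 pair for 8 members, all with small differences, and Serpinh1 between replicates 2 and 3 was the 1 called difference among them.

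The differences between libraries ran with transcript length, in the members and in all genes. Of the 21 members whose longest annotated transcript was shorter than the median of 3419 bases, replicate 2 was the lowest library for 14 and the highest for 1. Of the 11 members at or above that length it was lowest for 3 and highest for 5. Over all detected genes with a length, replicate 2 was lowest for 50.2% of the shorter and 24.2% of the longer ones. The median log2 ratio of replicate 2 to the mean of the others was -0.38 for the shorter members and 0.05 for the longer ones. Over all detected genes with a length it was -0.16 for the 5809 shorter and 0.20 for the 5811 longer ones, and it went from -0.42 in the shortest of 10 equal bins (64 to 1419 bases) to 0.37 in the longest. Spearman's rho of length with this ratio was 0.52 across the 32 members and 0.37 across 11620 genes, as a description across genes that share 3 libraries. Replicate 1 ran the opposite way, with a median log2 ratio to the others of 0.36 in the shortest bin and -0.25 in the longest over all genes, and a rho of -0.52 across the members. Length and GC content together took up 12.0%, 10.4% and 4.70% of the variance of the deviation over genes in replicates 1, 2 and 3. The log2 ratio of replicate 1 to replicate 3 also fell with length, with a rho of -0.31 across the members and -0.18 across all genes. Sec61b (723 bases), Sdf2l1 (1108 bases) and Ssr2 (1189 bases), which were among the members lowest in replicate 2, are the shortest of the list. Ssr1, at 9333 bases, went against the trend, with a log2 ratio of -0.40.

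**Figure D3:**
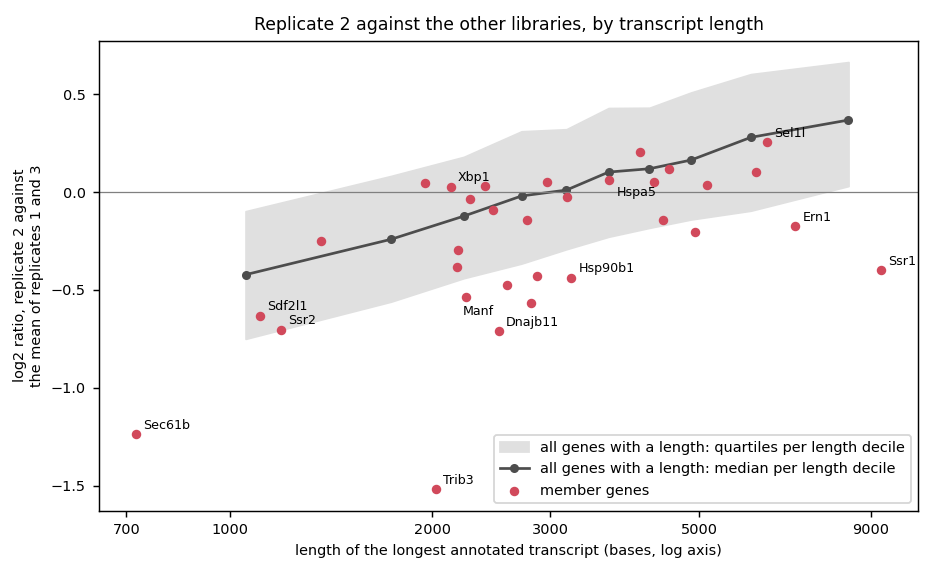
log2 ratio of replicate 2 to the mean of replicates 1 and 3 against the length of the longest annotated transcript (bases, log axis) for the 32 members (red points), over the median (line) and quartiles (band) of all detected genes in 10 bins by length. The median runs from -0.42 to 0.37, and Trib3 lies at -1.52, Sec61b, the shortest, at -1.24 and Ssr1, the longest, at -0.40.

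After the part of each library's deviation that followed length and GC content over all genes was subtracted, a correction added after the data were seen, the list was still lower in replicate 2. Replicate 2 was then the lowest library for 21 members (39.8% of all genes), and the median log2 ratio was -0.18. Single members moved in opposite ways. The log2 ratio of Sec61b in replicate 2 went from -1.24 to -0.70 and its range from 2.79-fold to 1.79-fold, that of Sdf2l1 from -0.63 to -0.23, and that of Ssr2 from -0.70 to -0.33. That of Ssr1 went from -0.40 to -0.77, with a range of 1.90-fold, and that of Ern1 from -0.17 to -0.46. Trib3 kept a log2 ratio of -1.35 and a range of 3.00-fold, and was the only member still over 2-fold, against 19.0% of all genes. Dnajb11 and Ppp1r15a were at -0.63 and -0.54, and Hsp90b1 went from -0.44 to -0.52. Hspa5 went from 0.06 to -0.02, so that replicate 2 turned from its highest to its lowest library within a range of 1.02-fold. Xbp1 and Dnajc3 became less level, each with a range of 1.15-fold against 1.04-fold as deposited. Replicate 2 was then the highest library for Xbp1 and the lowest for Dnajc3.

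**Figure D4:**
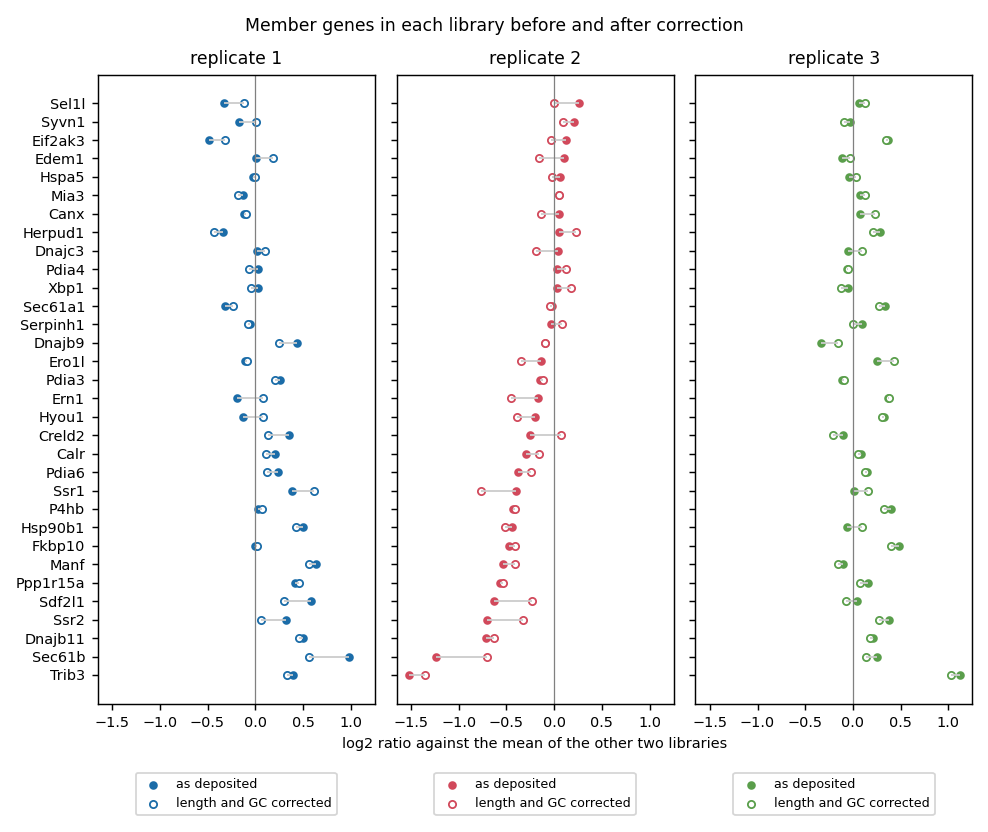
log2 ratio of each member in replicates 1, 2 and 3 to the mean of the other two libraries, as deposited (filled) and after correction for transcript length and GC content (open), in order of replicate 2. In replicate 2 Sec61b moves from -1.24 to -0.70 and Ssr1 from -0.40 to -0.77, while Trib3 stays lowest at -1.35.

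The other genes of the pathway were read from 6 further lists of 95 genes, of which 94 were detected. Of these 5 (5.32%) had a range over 2-fold, against 22.0% of all detected genes. Their median SD of log2 was 0.23, against 0.30. The transcription factors of the response were not uniform. In replicate 2 the list of 12 factors and proteases had a median log2 ratio of -0.14. It was -0.21 after the correction for length and GC content, which covered 11 of them. Atf4, the factor translated when PERK is active, had 11097, 7302 and 9330 normalized counts, and Ddit3, which encodes CHOP, had 1346, 845 and 1066. Atf3, a stress-induced repressor, had 225, 64.8 and 149 normalized counts, a range of 3.47-fold. All 3 genes were lowest in replicate 2, highest in replicate 1 and differed in every pair. Atf6, the gene of the third sensor, had 953, 1196 and 1125 normalized counts and was lowest in replicate 1.

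Among 12 targets of Atf4, replicate 2 was the lowest library for 7, against 37.3% of all detected genes. The gene with the widest range went the other way. Psat1, an enzyme of serine synthesis, had 1945, 5158 and 2576 normalized counts, highest in replicate 2 by 2.65-fold over replicate 1. Its neighbour in that pathway Phgdh, chosen after its values were seen, had 2699, 5234 and 3507 normalized counts. Nupr1, a stress-induced chromatin protein also chosen after its values were seen, had 4399, 1758 and 2751, with replicate 2 the low library as for Trib3. The targets of Atf4 were thus split between libraries. Their median log2 ratio in replicate 2 was -0.18, and -0.10 after the correction for length and GC content.

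The 20 further folding enzymes and chaperones had a median log2 ratio in replicate 2 of -0.34, and -0.20 after the correction for length and GC content. Of these genes 13 were lowest there, against 37.3% of all detected genes. Fkbp11, a prolyl isomerase, had the widest range of these, with 1260, 731 and 1480 normalized counts. In the list of translocon, signal peptidase and oligosaccharyltransferase genes, 12 of 20 were lowest in replicate 2, beside the same 37.3%. Their median log2 ratio there was -0.23, and -0.27 after the correction. Ostc, an oligosaccharyltransferase subunit, had 3838, 1875 and 3107 normalized counts, a range of 2.05-fold. Of the further degradation genes 15 of 16 were detected, 7 of them lowest in replicate 2, again beside 37.3% of all detected genes. Their median log2 ratio there was -0.19, and -0.08 after the correction, which covered 14 of them. Os9, a lectin of the HRD1 complex, had the widest range of these at 2892, 2283 and 3914. For the 15 export and retrieval genes the median log2 ratio in replicate 2 was 0.04, and 0.05 after the correction. Mcfd2, part of a cargo receptor, had the widest range of these at 9019, 5216 and 8157. Pair by pair, the genes called in these 6 lists were 80 of the 94 between replicates 1 and 2, 73 between 1 and 3 and 81 between 2 and 3, against 69.1%, 52.0% and 62.6% of all genes.

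**Figure D5:**
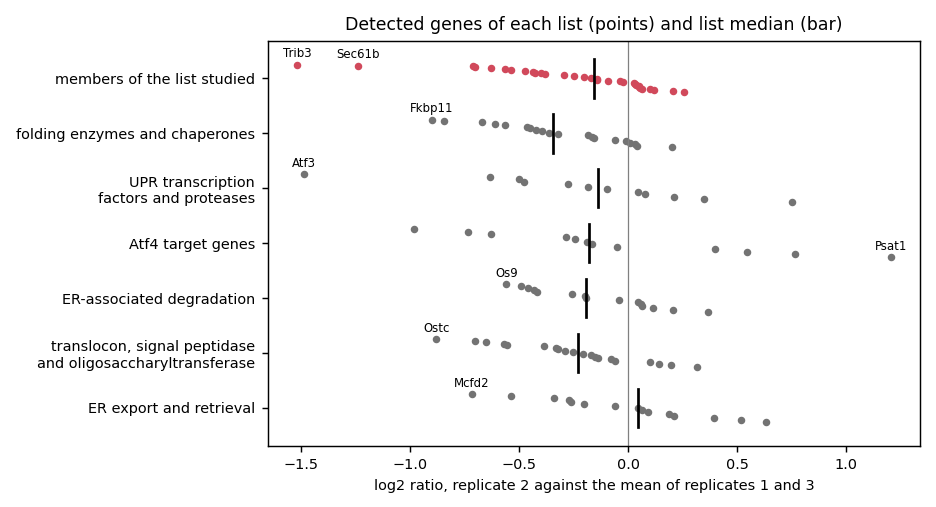
log2 ratio of replicate 2 to the mean of replicates 1 and 3 for each detected gene (points) of the member list and of 6 further ER lists, with the median of each list (bar). The medians lie at -0.16 for the members, between -0.34 and -0.14 for 5 of the further lists and at 0.04 for export and retrieval.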

How the data were processed

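Adapter-filtered single-end reads (ea-utils) had been aligned by the authors to mm10 (GRCm38) with TopHat2 2.0.13, counted per gene with HTSeq 0.5.3p3 and normalized with DESeq. The submitters' notes also name FastQC 0.11.5 and SAMtools 0.1.19.24. The kit was stranded, but the annotation, the strand option of HTSeq, the DESeq version and the libraries behind the size factors are not given in the sources used here. The deposited signal is normalized counts, which are reads divided by 1 size factor per library (1.15, 1.42 and 0.844). All values (100%) were whole multiples, within 0.01, of 1 read's worth, so reads were recovered by division. The table's 3 further columns of values match no labelled sample and were left out.

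Log ratios used log2(normalized count + 1). Two-sided exact binomial tests compared the reads of each pair of libraries, over genes with at least 10 reads, with Benjamini-Hochberg adjustment at 0.05. Nothing says whether the replicates came from separate animals, and these p-values measure only differences beyond counting error between libraries. With 1 condition no model between groups was fitted. TMM factors came from edgeR 4.0.16 (R 4.3.3), and the rest used Python 3.11.15, numpy 2.4.6, scipy 1.17.1, pandas 2.3.3 and matplotlib 3.10.9. Gene positions, exon unions (for values per kb), transcript lengths and GC content came from GENCODE M21. Of the members 12 share exonic bases with another annotated gene. The tests were tried on simulated data. The planned description of protein features was not run. The members and lists were chosen with earlier results of these data known. All members were named, with Atf4, Ddit3, Atf6, Atf3 and the gene of widest range in each further list. Alternatives were other scalings, pseudocounts, minimums and fold limits, and each replicate left out.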

Additional observations from a re-analysis of the deposited data

How the results depend on the processing

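The number of members over 2-fold was 0 to 2 with 1 replicate left out (0 without replicate 2, 1 without replicate 1) and 1 after the correction for length and GC content. The median SD of log2 of the members was 0.174, 0.175 and 0.219 without replicate 1, 2 and 3. That of all detected genes was 0.259, 0.196 and 0.302, so the contrast with the members was smallest without replicate 2. After the correction it was 0.176 for the members and 0.260 for all genes with a length. Over genes above 0 in any library it was 0.455. Without replicate 1, 2 or 3, 12.9%, 6.31% and 15.5% of detected genes were over 2-fold. Members apart in replicate 2 numbered 2 with TMM scaling, where Sec61b passed the limit as well (10.1% of all genes), and 4 at a 1.5-fold limit (22.9%). With over 2-fold required beside the exact test, members called were 2, 0 and 1 for replicates 1 and 2, 1 and 3, and 2 and 3. Other scalings, pseudocounts and minimums left the remaining counts within 1.5 times the reported ones, and the correction left 21 members lowest in replicate 2. With the longest transcript in place of the exon union, 22 of 32 per-kb means moved beyond 1 SD, 6 of them by over 1.5-fold (Manf, Pdia6, Sec61a1, Sec61b, Ssr2 and Xbp1), and 17 members changed place.

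No paired analysis was possible because there was only 1 group. The depth of 17244505 to 27037783 reads did not limit the members, as each rested on at least 412 reads. With 3 libraries of 1 condition, differences between libraries cannot be assigned to culture, RNA quality or library preparation, and none of these was tested.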
